A study of Homo sapiens with 6 samples.

Results

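The death-associated protein kinase (DAP kinase) family was examined in AB 8/13 podocytes, with 5 member genes (DAPK1, DAPK2, DAPK3, STK17A and STK17B) among the 20745 genes of the deposited table. The members were chosen by gene name as a kinase family, with the authors' comparison of levamisole and vehicle in view, and no value of that comparison is used here. AB 8/13 is a conditionally immortalized human podocyte line, which divides at the permissive temperature and differentiates at the restrictive one. RNA was sequenced from 3 vehicle cultures and from 3 cultures given 1 µM levamisole, a drug against parasitic worms that is also given to children with nephrotic syndrome to spare them steroids, each for 24 h. By the labels both groups were kept without serum, whereas the study's methods name complete medium for the vehicle group, and this was not resolved.

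DAP kinases are serine/threonine kinases with related catalytic domains, known for roles in cell death, autophagy and the contraction of the actin-myosin cytoskeleton. DAPK1 is a large, calmodulin-regulated protein with ankyrin repeats and a death domain, DAPK2 is a short calmodulin-regulated form, and DAPK3 (also named ZIPK) lacks a calmodulin-binding segment and carries a leucine zipper. STK17A and STK17B (also named DRAK1 and DRAK2) are more distant relatives with a similar catalytic domain and a short tail. Myosin regulatory light chain is a shared substrate of DAPK1 and DAPK3, and actin-myosin contractility matters to podocytes because their foot processes are built on actin.

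The level of each gene is given as its base mean, the mean normalized count that the authors deposited over the libraries of their fit. This value pools all cultures, so no value per culture, no standard deviation and no n can be given, neighbours in an order of levels cannot be tested against their spread, and a levamisole effect on the members was not analysed here. The depth of each library is unknown. The 3744 genes with a base mean under 1 held 3744 different values, whereas 1 to 6 reads can be spread over 6 libraries in only 923 ways. With library scaling factors near 1, the base mean would therefore cover more libraries than the 6 cultures. Those factors are unknown, so the number of libraries was not settled, and a level below is that of the authors' whole fit. The median base mean of all genes was 21.8, 64.3% of genes had a base mean of at least 5, and 29.4% had one of at least 100.

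Reads of the 3′ tag protocol (an adapted CEL-seq, in which cDNA starts at the poly(A) tail) can be assigned only where a member differs from its relatives. The search was for a stretch shared by all 3 DAPK genes, and single pairs among these 3 were not searched for one. For STK17A and STK17B the best such stretch held 48 of 60 shared bases (80.0%) and is not printed. The gap-free stretch of 60 aligned coding bases in which the 3 genes share most bases is printed here. It lies in exon 3 of the canonical transcript of all 3 genes, at chr9:87605042-87605101 on the plus strand (DAPK1), chr15:63983607-63983666 on the minus strand (DAPK2) and chr19:3964844-3964903 on the minus strand (DAPK3) of GRCh38, as annotated in GENCODE 44. Capitals mark the 49 of 60 bases (81.7%) that are the same in the 3 genes.
DAPK1: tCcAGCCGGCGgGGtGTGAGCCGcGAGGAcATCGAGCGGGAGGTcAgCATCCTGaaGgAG
DAPK2: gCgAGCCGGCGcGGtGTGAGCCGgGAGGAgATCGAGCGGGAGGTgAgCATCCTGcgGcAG
DAPK3: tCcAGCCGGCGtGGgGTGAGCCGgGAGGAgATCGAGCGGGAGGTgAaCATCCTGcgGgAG

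When STK17A and STK17B were aligned with them, the best stretch of 60 bases fell further along the kinase coding sequence and held 32 bases (53.3%) shared by all 5 genes, again in capitals. It crosses an exon junction in each gene, from exon 5 to 6 in DAPK1 (chr9:87639446-87639671), DAPK2 (chr15:63930434-63939269) and STK17B (chr2:196141276-196143597), and from exon 4 to 5 in DAPK3 (chr19:3963898-3964281) and STK17A (chr7:43619686-43623593), where the coordinates of GRCh38 span the intron.
DAPK1: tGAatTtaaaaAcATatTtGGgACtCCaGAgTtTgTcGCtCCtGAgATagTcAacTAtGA
DAPK2: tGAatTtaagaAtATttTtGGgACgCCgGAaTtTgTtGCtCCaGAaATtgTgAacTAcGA
DAPK3: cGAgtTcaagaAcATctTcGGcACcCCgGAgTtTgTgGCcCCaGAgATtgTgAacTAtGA
STK17A: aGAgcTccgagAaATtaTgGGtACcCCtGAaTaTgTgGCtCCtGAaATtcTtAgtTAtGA
STK17B: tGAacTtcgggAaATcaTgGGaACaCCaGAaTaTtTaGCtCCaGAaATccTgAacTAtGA

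Over the aligned parts of the coding sequences, DAPK2 and DAPK3 were the closest pair, with 76.8% identical bases over 826 aligned pairs. DAPK1 shared 73.6% of bases with DAPK3 over 832 pairs and 70.5% with DAPK2 over 938 pairs. STK17A and STK17B shared 65.2% over 807 pairs, and the DAPK genes shared between 55.2% and 61.2% with either of them. The alignments across the groups covered from 468 to 795 pairs, so these percents rest on stretches of unlike length. The percents depended on the gap penalties of the alignment: with lower ones (gap open 10, extend 0.5) the pairs across the groups ran from 69.7% to 77.2% and overlapped the DAPK pairs, at 73.9% to 81.5%. Those alignments were longer, with 902 aligned pairs against 570 for DAPK1 and STK17B, and gaps do not enter the percents. Unrelated sequences were not aligned at either setting, so the overlap cannot decide whether the groups are separate. DAPK2 and DAPK3 were the closest pair under both settings. The longest run of identical bases between the canonical transcripts of any pair was 31, for DAPK2 and DAPK3, and it was between 11 and 17 for the other pairs. Every such run was shorter than the 60 bases of a window, so no window of that length was common to the canonical transcripts of 2 members.

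**Figure D1:**
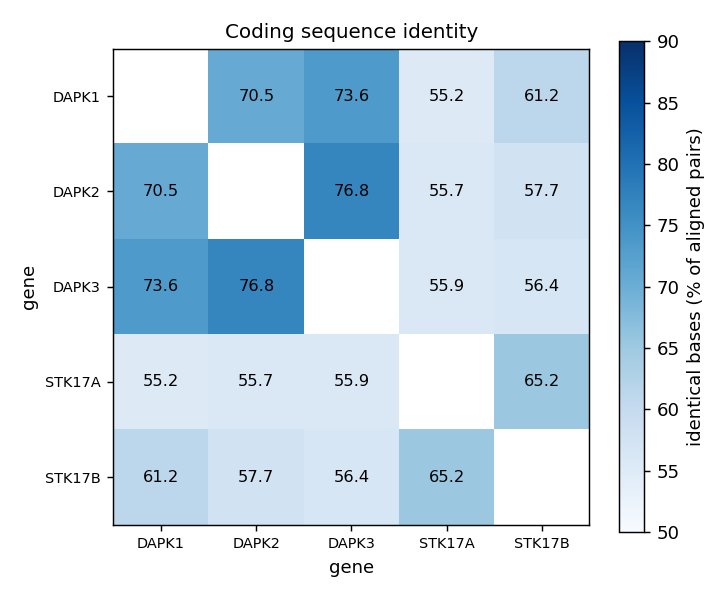
Identical bases as a percent of aligned base pairs between the coding sequences of the 5 DAP kinase genes, from local alignments; genes are on both axes and the colour gives the percent. The 3 DAPK genes form a block between 70.5% and 76.8%, STK17A and STK17B share 65.2%, and pairs across the groups lie between 55.2% and 61.2%. With lower gap penalties these ranges overlap, which cannot decide whether the groups are separate because unrelated sequences were not aligned.

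Reads of this protocol fall at 3′ ends, and those of the canonical transcripts were also distinct. Other annotated ends were not checked, although the STK17A gene model runs to 43650713, beyond its canonical end at 43627379. Of the 441 windows of 60 bases in the last 500 bases of each canonical transcript, 0 were found in an annotated transcript of another gene, for each of the 5 members. No exon of another gene on either strand covered any of these 500 bases in GENCODE 44. The poly(A) signal AATAAA stood within the last 50 bases of the DAPK1, DAPK2, DAPK3 and STK17B transcripts, and STK17A had ATTAAA instead. Among all canonical coding transcripts, 62.2% had AATAAA there.

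The family was dominated by STK17A. STK17A (ENSG00000164543), a kinase linked to apoptosis, lies on chromosome 7 from 43582758 to 43650713 on the plus strand and had a base mean of 1224, above that of 97.1% of all genes (95.1% per kb of transcript). Its base mean made up 74.2% of the summed base means of the 5 genes, which came to 1651. DAPK1 (ENSG00000196730), the founding member, lies on chromosome 9 from 87497228 to 87708634 on the plus strand and had a base mean of 259, above that of 84.9% of genes (76.1% per kb). It held 15.7% of the family's sum.

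STK17B and DAPK3 were at lower levels. STK17B (ENSG00000081320), best known for its role in lymphocytes, lies on chromosome 2 from 196133583 to 196176503 on the minus strand and had a base mean of 115, above that of 73.1% of genes (65.3% per kb). DAPK3 (ENSG00000167657), which phosphorylates myosin light chain without needing calcium, lies on chromosome 19 from 3958453 to 3971123 on the minus strand and had a base mean of 52.4, above that of 60.9% of genes (66.2% per kb). Among protein-coding genes alone, the median base mean was 66.2, and DAPK3 was under it. By base mean STK17A was above 95.9% of protein-coding genes, DAPK1 above 78.6%, STK17B above 62.0% and DAPK3 above 45.4%. These values are levels over all libraries of the fit and say nothing of either group by itself.

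DAPK2 was barely measured. DAPK2 (ENSG00000035664), the short calmodulin-regulated form, lies on chromosome 15 from 63907036 to 64072033 on the minus strand and had a base mean of 0.853, under 1 mean normalized count, with 15.9% of genes lower (7.25% per kb). The number of reads behind a base mean that low is unknown, so the level of DAPK2 is taken as not resolved, and no statement on its absence can be made. In RNA of a whole culture, fewer cells with a transcript and less RNA per cell cannot be told apart. It was the 1 member under a base mean of 5, against 35.7% of all genes under that value.

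**Figure D2:**
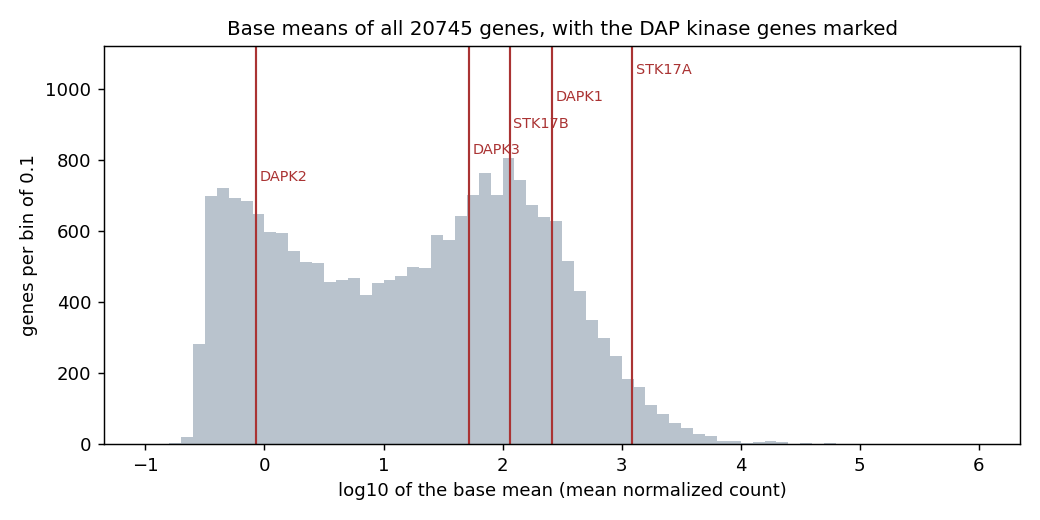
Histogram of the base mean of all 20745 genes in bins of 0.1 on a log10 scale, with a line at each DAP kinase gene. STK17A (1224) lies in the upper tail, DAPK1 (259), STK17B (115) and DAPK3 (52.4) lie above the median of 21.8, and DAPK2 (0.853) lies among the lowest genes. DAPK3 lies under the median of protein-coding genes alone, which was 66.2.

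Levels of different genes were set side by side per kb of the canonical transcript, although a 3′ tag protocol yields about the same reads from a long and a short transcript, so that the base mean without a length is given beside it. Per kb, STK17A (3918 bases, 7 exons) had a base mean of 312, DAPK1 (5912 bases, 26 exons) one of 43.7, DAPK3 (2286 bases, 9 exons) one of 22.9, STK17B (5273 bases, 8 exons) one of 21.8 and DAPK2 (2791 bases, 12 exons) one of 0.306. On both scales STK17A was first, DAPK1 second and DAPK2 last. STK17A was 7.14 times DAPK1 per kb and 4.73 times DAPK1 by base mean.

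The order of STK17B and DAPK3 depended on the scale. By base mean STK17B was 2.19 times DAPK3, whereas per kb of the canonical transcript it was 0.950 times DAPK3. STK17B was also the higher per kb of coding sequence (2.67 times) and of the shortest coding transcript (2.59 times). Only the canonical length put DAPK3 first, and without a spread the order of the pair was not tested. DAPK1 was 2.01 times STK17B per kb and 2.25 times STK17B by base mean. That order turned with other lengths, to 0.586 times STK17B per kb of coding sequence and 0.273 times per kb of the shortest coding transcript. STK17A was 1023 times DAPK2 per kb and 1435 times DAPK2 by base mean, ratios that rest on the low base mean of DAPK2.

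**Figure D3:**
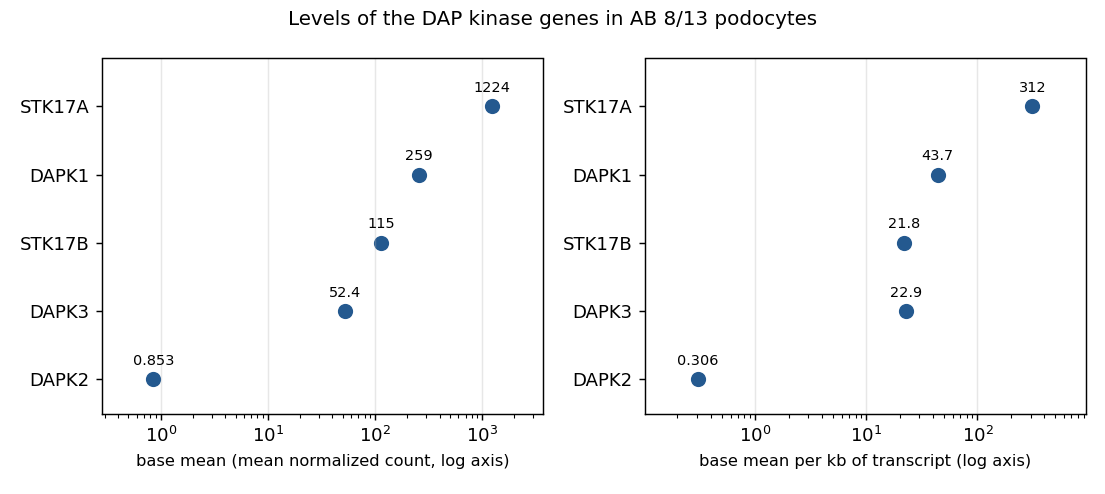
Base mean of the 5 DAP kinase genes (left) and base mean per kb of the canonical transcript (right), both on log axes, with 1 point per gene and no error bar because the table pools the cultures. STK17A is highest on both axes and DAPK2 lowest, and STK17B and DAPK3 change places (115 and 52.4 on the left, 21.8 and 22.9 on the right).

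Of 15 related kinases, most of which are also regulated by calmodulin, 14 had a value. A base mean of at least 5 was reached by 11 of them, against 64.3% of all genes. The 14 kinases had a median base mean of 80.9 (11.9 per kb), beside 115 (22.9 per kb) for the DAP kinase genes and 21.8 (8.45 per kb) for all genes. MYLK, the smooth muscle and non-muscle myosin light chain kinase, was the only one of them above STK17A, with 3274 by base mean and 324 per kb against 312 per kb for STK17A. CAMK1 (278 by base mean, 191 per kb) and CAMK1D (274 by base mean, 33.9 per kb), calmodulin-dependent kinases of type I, followed. The lowest were CAMK1G (2.54 by base mean, 1.03 per kb), MYLK4 (0.628 by base mean, 0.109 per kb) and MYLK2, the skeletal muscle form (0.348 by base mean, 0.124 per kb). MYLK3 had no value used here.

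Among the 19 measured genes of both kinds ordered together, STK17A was in place 2, DAPK1 in place 5, STK17B in place 8, DAPK3 in place 13 and DAPK2 in place 17 by base mean. Per kb these places were 2, 4, 9, 8 and 17. By base mean DAPK1 stood between CAMK1D (274) and CAMKK2 (165), whereas per kb it stood between CAMK1 and CAMK1D. STK17B stood between CAMK4 (125) and CAMK2G (114), and DAPK3 stood between DCLK1 (65.2) and CAMK2A (6.73) by base mean. Per kb DAPK3 and STK17B were adjacent, between CAMK2G (29.3) and CAMK2B (18.7). DAPK2 came after CAMK1G on both scales, and was followed by MYLK4 by base mean and by MYLK2 per kb.

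Genes that act upstream of the DAP kinases were all measured, and 11 of 11 reached a base mean of 5, with 9 at 100 or more. Of all genes, 64.3% reached 5 and 29.4% reached 100. The median base mean of the 11 upstream genes was 197 (98.9 per kb). The highest was CALM2 (4994 by base mean, 4128 per kb), which encodes calmodulin, the calcium sensor that relieves the autoinhibition of DAPK1 and DAPK2. The lowest were RPS6KA3 (123 by base mean, 15.3 per kb) and RPS6KA1 (52.6 by base mean, 16.5 per kb), which encode RSK kinases that phosphorylate DAPK1, and UNC5B (13.5 by base mean, 1.98 per kb), a netrin receptor that signals death through DAPK1. KLHL20, an adaptor for the ubiquitin ligase that turns DAPK1 over, had a base mean of 636 and a level of 186 per kb. Above DAPK1 were 6 of the 11 genes per kb and 5 by base mean.

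All 13 substrates and binding partners reached a base mean of 5, and 12 reached 100, against 64.3% and 29.4% of all genes. The median base mean of the 13 was 855 (199 per kb), beside 115 (22.9 per kb) for the kinases. The highest by base mean were RPL13A (5413 by base mean, 4803 per kb), a ribosomal protein phosphorylated in the DAPK1-DAPK3 pathway of translational control, MYL12A (2724 by base mean, 2843 per kb), a myosin regulatory light chain, and STAT3 (2166 by base mean, 440 per kb), a transcription factor bound by DAPK3. The other light chain genes had base means of 1888 (MYL12B) and 1213 (MYL9), or 1623 and 435 per kb. Among the lowest were TSC2 (261 by base mean, 40.7 per kb), a brake on mTORC1, and ATF4 (88.4 by base mean, 62.3 per kb), a stress-response factor that binds DAPK3. Of these genes, 12 of 13 were above DAPK1 per kb and 11 of 13 by base mean. On either scale 5 of 13 were above STK17A.

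Some of these values are uncertain because their 3′ ends share sequence with other genes. For ATF4, 40.4% of the windows of 60 bases in the last 500 bases occur in annotated transcripts of its pseudogenes, against 7.94% for RPL13A and 7.48% for MYL12A, which shares them with MYL12B. BECN1, the autophagy protein that DAPK1 phosphorylates, shared 0 windows and was measured at 420 by base mean and 199 per kb.

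The genes found with DAPK1 in the screen for mediators of interferon-gamma-induced death had base means from 236 to 3071, with a median of 690 (300.1 per kb). EIF4G2 (3071 by base mean, 809 per kb), a translation factor, and TXN (3063 by base mean, 4156 per kb), thioredoxin, were highest, and TXN shared 2.27% of its windows with pseudogenes. DAP, a negative regulator of autophagy, had a base mean of 690 and a level of 300.1 per kb. The lowest were DAP3, a mitochondrial ribosomal protein (274 by base mean, 133 per kb), and CTSD, the lysosomal protease cathepsin D (236 by base mean, 115 per kb). All 5 were above DAPK1 per kb, and 4 by base mean, where CTSD was lower than DAPK1. Only EIF4G2 and TXN were above STK17A on either scale.

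**Figure D4:**
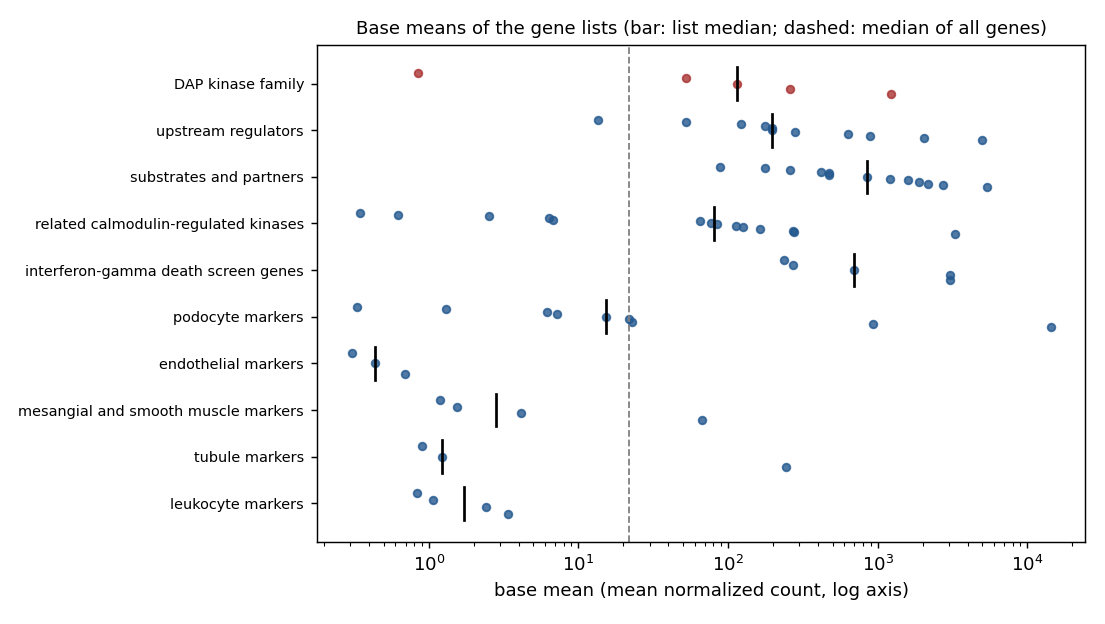
Base means of the gene lists on a log axis, with 1 point per gene, a bar at the median of each list and a dashed line at the median of all genes (21.8). The medians of the DAP kinase genes (115), upstream regulators (197), substrates (855), related kinases (80.9) and screen genes (690) lie to the right of the dashed line, and those of the markers of every cell type tested lie to the left of it.

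RefSeq promoter windows (250 bases before to 50 after a start, GRCh38.p14) were held for all 5 members, with 2 windows for DAPK1. All 6 windows were rich in G and C, from 71.7% to 78.0%, whereas the median of the 35116 windows was 58.7%. They held from 33 to 40 CpG sites against a median of 14, and each CpG count was above that of at least 82.8% of windows. DAPK1, whose promoter CpG island is known to be silenced by methylation in tumours, had 37 and 33 sites. DAPK2, the lowest member, had 33, and STK17A, the highest, had 40, so a CpG-rich window was common to members with very different levels.

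The GC box GGGCGG, counted on both strands, was present in every member's windows, 7 times in STK17A, where 1 pair of matches overlapped, and from 1 to 3 times in the others. It occurs in 45.0% of all windows, but the members' windows are richer in G and C (71.7% to 78.0%) than the median window (58.7%). Windows of like GC content were not compared. The CCAAT box CCAAT was found in DAPK3 (2 matches), STK17B (1 match) and 1 window of DAPK1 (1 match), against 34.6% of all windows. The core TGACGT was found in DAPK3 alone, against 8.0% of all windows. The interferon-gamma-activated site TTCNNNGAA was in none of the 6 windows, against 7.66% of all windows, which says only that these letters are not in these 300 bases.

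The labelled cell type was checked with marker genes. Of 13 podocyte markers 9 had a value, and NPHS1, which encodes nephrin of the slit diaphragm, LMX1B and TRPC6 were among the 4 without one used here. ACTN4 (14320.5), CD2AP (929), SYNPO (22.8), PLA2R1 (21.8), PODXL (15.3), TCF21 (7.20) and WT1 (6.21) had base means of at least 5, whereas PTPRO (0.333) did not. Apart from ACTN4 and CD2AP, which many cell types express, the podocyte markers with a value were lower than STK17A, DAPK1, STK17B and DAPK3 by base mean and per kb. Of 6 leukocyte markers, ITGAM (3.40), CD14 (2.40), CD68 (1.06) and PTPRC (0.832) had a base mean used here, and CD3E and MS4A1 had none. The value of CD68 is uncertain, since 80.3% of the windows of 60 bases at its 3′ end occur in transcripts of other genes. Of 6 endothelial markers, TEK (0.690), VWF (0.434) and CDH5 (0.306) had one, and PECAM1, KDR and EMCN had none. MYH11 (66.9), PDGFRB (4.14) and GATA3 (1.54) were among those that represented the mesangium and smooth muscle, without ITGA8 and DES. AQP1 (243), CUBN (1.22) and SLC34A1 (0.900) represented the tubule, without LRP2, SLC12A1, UMOD and AQP2.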

How the data were processed

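RNA of AB 8/13 podocytes was sequenced from 3 vehicle and 3 levamisole cultures with an adapted CEL-seq protocol. Per the study's methods and the submitters' processing notes, reads were trimmed with Trim Galore 0.4.5, mapped to GRCh38 with STAR 2.7.5a, counted with HTSeq 0.11.0 and compared with DESeq2 1.22.0. The methods also describe a BWA alignment with RPM scaling. The base mean is a signal deposited by the authors: the mean normalized count of a gene over the libraries of their fit. The other columns hold the authors' own comparison (log2 fold change, its standard error, Wald statistic, p-value and adjusted p-value) and were not used. No column gives values per culture, so depth, error and a levamisole effect were not analysed, and no count model or test was run.

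Ranks, ratios and levels per kb were computed with Python 3.11.15, NumPy 2.4.6 and pandas 2.3.3, using the canonical transcripts of GENCODE 44, which matched 20599 of 20745 identifiers. The study counted on an older annotation of the same assembly. Coding sequences were aligned with Biopython 1.88 (local, match 5, mismatch -4, gap open 25, extend 5) and MAFFT 7.526. Windows of 60 bases were compared with all annotated transcripts. Figures were drawn with matplotlib 3.10.9. The functions were tested on simulated data. A protein comparison was planned and not run, since no protein table was used here. The members and gene lists were chosen with earlier results of these data known. Genes named are the members, the 3 highest and 3 lowest of each list by base mean, genes without a value, neighbours of the members in the order of kinases, and podocyte markers at a base mean of at least 5. KLHL20, BECN1, MYL12B and MYL9 were named after their values were seen or because they complete a group. Results for some listed genes are not reported here.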

Additional observations from a re-analysis of the deposited data

How the results depend on the processing

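No paired analysis was possible because the file gives 1 mean per gene and nothing for single cultures. Fits with edgeR and DESeq2, a filter on low counts and leaving out each replicate were not run. Of the 5 members, 4 lay above the median base mean of all genes or of those at 1 or more, and 3 above that of genes at 5 or more or of protein-coding genes, since fewer low genes enter. DAPK3 (52.4) made the difference, under the medians of 82.6 for genes at 5 or more and 66.2 for protein-coding genes. The members' share of the summed base means was 0.0260%, and 0.0399% without the 22 mitochondrially encoded genes, which take 34.8% of the sum. STK17A over DAPK1 per kb (7.14) became 10.6 with the shortest coding transcript, 16.4 with the coding length and 4.73 with no length. DAPK1 over STK17B (2.01) became 0.273, 0.586 and 2.25, and STK17B over DAPK3 (0.950) became 2.59, 2.67 and 2.19. The order of DAPK1, STK17B and DAPK3 thus depended on the length used. For STK17A, DAPK1, STK17B and DAPK3 the longest coding transcript is the canonical one, so that setting could not change the 3 ratios. For the kinase, regulator, substrate, screen and podocyte lists, counts of genes at a base mean of at least 1 or 10 stayed within 1.5 times those at 5. At a minimum of 1 the mesangial and smooth muscle markers had 4 genes against 1 at 5, the tubule markers 2 against 1 and the leukocyte markers 3 against 0. With gap open 10 and extend 0.5, an alternative chosen after seeing the data, DAPK2 and DAPK3 shared 81.5% of coding bases and STK17A and STK17B 74.8%. DAPK1 and STK17B shared 77.2%, more than DAPK1 and DAPK2 at 73.9%. Unrelated sequences were not aligned at this setting, so the overlap does not show that the grouping of the 3 DAPK genes is lost. DAPK3 still shared more with DAPK2 and with DAPK1 (78.2%) than any pair across the groups did. Gaps do not enter these percents.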
